A study of Mus musculus with 8 samples.

Results

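The ATF4 and unfolded-protein response genes described here are 38 genes, listed by name and looked up by symbol among the 17091 features of the deposited table. All 38 were found, and all 38 passed the filter on low values. Of these, 20 are targets or partners of the transcription factor ATF4 (the ATF4 arm), and 18 work in the endoplasmic reticulum, the ER, or answer to its stress sensors (the ER arm). The oxidase gene Ero1l is listed under that older symbol and is now called Ero1a.

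When unfolded protein builds up in the ER, sensors in its membrane start the unfolded-protein response. IRE1 splices the mRNA of Xbp1, and ATF6 is cut to release a transcription factor, and both raise chaperones, folding enzymes and the machinery of ER-associated degradation. PERK, like other kinases of the integrated stress response, phosphorylates eIF2alpha, which slows translation in general while favouring translation of Atf4 mRNA, so ATF4 protein can change without a change in Atf4 mRNA. ATF4 raises genes of amino acid synthesis and uptake, and oxygen is needed for the disulfide bonds that ER oxidases put into collagens and other secreted proteins, which fibroblasts make in bulk.

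RNA was sequenced from immortalised mouse skin fibroblasts, cultured cells that make connective tissue matrix, in 4 groups of 2 libraries, 8 in all. KO hypoxia and KO normoxia are cells of C57BL/6 mir210lox/lox mice kept for 24 hours at 1% or at 21% oxygen, and WT hypoxia and WT normoxia are cells of wild-type C57BL/6 mice kept the same way. The design asks how cells answer low oxygen with and without miR-210, a microRNA that low oxygen induces. The lox alleles need Cre recombinase to remove DNA, and the labels, which give C57BL/6 for both genotypes, name no Cre treatment. The Mir210 feature was listed at 1, the lowest value of the table, in all 8 libraries, so it checks neither the genotype nor the oxygen labels. Whether the 2 libraries of a group were grown separately, and how many mice gave the cells, is not stated in the labels. The spread behind each p-value is therefore that of these libraries alone and may be technical.

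Levels are given as normalised read counts, as the authors scaled them, and the reads assigned to genes were estimated at 6.25 M to 11.75 M per library. The 10 fibroblast markers summed to 66921 to 91568 per library, and all were above the lowest value of the table in every library except Lum, which had 3 and 4 in KO hypoxia, 1 and 3 in KO normoxia, 6 and 36 in WT hypoxia, and 4 and 27 in WT normoxia. Dcn was also low, at 25 and 16 in KO hypoxia and 12 and 19 in KO normoxia. In WT cells Dcn read 52 and 93 in hypoxia and 40 and 62 in normoxia. Vim and Fn1 had the highest values of these markers in every library. Markers of keratinocytes or epithelium summed to 27 to 65, with Krt1 and Krt5 at the lowest value, those of macrophages or leukocytes to 10 to 32, and those of endothelium to 12 to 44. Those of muscle summed to 433 to 1377, mostly from Acta1 (401 to 977), and Myh11 reached 398 in WT normoxia replicate 2. The 8 HIF-responsive genes used to check the oxygen labels were all called higher in hypoxia, by 1.19 to 4.98 on the log2 scale. Libraries of a group differed in other ways. Features with symbols of small noncoding RNAs or miRNA genes, Rpph1 and Rmrp included, took 11.23% and 3.5% of the summed values in KO hypoxia, 7.22% and 2.75% in KO normoxia, 6.43% and 6.09% in WT hypoxia, and 3.61% and 2.62% in WT normoxia. KO normoxia replicate 1 held the highest value of 10 members and the lowest of 7, and WT hypoxia replicate 2 the highest of 7 and the lowest of 8. In each of the other 6 libraries 1 to 6 members had their highest value and 0 to 6 their lowest.

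The sequences below are promoter windows from RefSeq (build GRCm38.p6), each running from 250 bases before the gene start to 50 after it and written 5′ to 3′ in the direction of the gene. They are examples: Ero1l is the only member past the threshold, Trib3 and Nupr1 belong to the ATF4 arm, and Calr and Pdia6 to the ER arm. Trib3, Nupr1, Calr and Pdia6 each hold a motif, marked below, that most windows of their arm lack. All the genes shown had hypoxia and normoxia libraries that did not overlap in either genotype. Aldh18a1, Stc2 and Dnajb11 did not overlap either, and their windows hold neither motif. A link between motif and response was not tested. The Ero1l window lies at chr14:45318523-45318822, minus strand, and its capitals mark the 5-letter cores of the HIF-binding site, ACGTG and GCGTG, on either strand. Such cores also occur in each of the other windows shown, where they are not marked.
Ero1l: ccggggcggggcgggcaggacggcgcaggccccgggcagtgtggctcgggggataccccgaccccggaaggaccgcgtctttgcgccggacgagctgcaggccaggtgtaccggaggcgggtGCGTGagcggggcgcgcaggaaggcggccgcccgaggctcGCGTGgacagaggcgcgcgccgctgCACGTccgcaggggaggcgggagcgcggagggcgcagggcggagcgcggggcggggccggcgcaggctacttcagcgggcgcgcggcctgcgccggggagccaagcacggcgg
Capitals in the Trib3 window (chr2:152344011-152344310, minus strand) and in the Nupr1 window (chr7:126625421-126625720, minus strand) mark the core of the C/EBP-ATF response element, TGATGNAA, which lies on the other strand in both and so reads TTNCATCA.
Trib3: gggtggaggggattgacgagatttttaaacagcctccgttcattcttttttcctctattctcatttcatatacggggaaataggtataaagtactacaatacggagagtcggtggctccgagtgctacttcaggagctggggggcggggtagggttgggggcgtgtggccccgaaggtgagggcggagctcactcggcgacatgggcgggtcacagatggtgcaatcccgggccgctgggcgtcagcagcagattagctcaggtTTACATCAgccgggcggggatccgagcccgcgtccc
Nupr1: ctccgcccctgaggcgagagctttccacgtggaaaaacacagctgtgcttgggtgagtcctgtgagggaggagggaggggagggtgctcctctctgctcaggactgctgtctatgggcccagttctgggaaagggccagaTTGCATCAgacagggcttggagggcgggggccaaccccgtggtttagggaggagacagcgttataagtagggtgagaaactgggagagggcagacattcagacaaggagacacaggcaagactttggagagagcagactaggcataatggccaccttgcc
The Calr window (chr8:84846882-84847181, minus strand) and the Pdia6 window (chr12:17266339-17266638, plus strand) show in capitals the 2 ends of the ER stress response element, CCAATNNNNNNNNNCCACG, which in Calr lies on the other strand.
Calr: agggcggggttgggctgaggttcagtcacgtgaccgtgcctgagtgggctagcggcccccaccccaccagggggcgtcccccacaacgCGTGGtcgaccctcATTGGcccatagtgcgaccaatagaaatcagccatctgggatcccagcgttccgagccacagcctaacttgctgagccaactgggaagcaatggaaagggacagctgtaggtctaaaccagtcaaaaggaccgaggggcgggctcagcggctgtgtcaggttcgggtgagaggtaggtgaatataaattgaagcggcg
Pdia6: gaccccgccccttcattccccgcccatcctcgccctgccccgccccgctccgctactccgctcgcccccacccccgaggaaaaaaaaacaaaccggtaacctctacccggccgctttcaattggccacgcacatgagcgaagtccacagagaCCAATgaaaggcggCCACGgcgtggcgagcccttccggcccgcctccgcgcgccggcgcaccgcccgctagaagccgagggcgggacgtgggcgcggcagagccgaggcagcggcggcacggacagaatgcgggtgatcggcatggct

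Windows were found for 35 of the 38 members, all but Slc7a5, Hyou1 and Manf. The ER stress response element was found in 39 of all 32851 windows (0.119%) and in 6 members, Hspa5, Hsp90b1, Calr, Pdia6, Dnajc3 and Creld2. These are 6 of the 16 ER-arm genes with a window and 0 of the 19 ATF4-arm genes. The C/EBP-ATF core, to which ATF4 binds with a C/EBP partner, was found in 3.97% of all windows and in 7 members. They are Atf3, Trib3, Nupr1, Asns, Pycr1 and Chac1 of the ATF4 arm (6 of 19) and Herpud1 of the ER arm (1 of 16). The unfolded-protein response core TGACGTG was found in Hspa5 only, against 2.01% of all windows. The HIF core ACGTG, which is also contained in TGACGTG, was found in 14 members against 19.6% of all windows, and GCGTG in 27 members against 32.4%. The Ero1l window held 1 ACGTG match, 2 GCGTG matches and none to the other motifs. The Pdia6 window also held 1 ACGTG and 2 GCGTG matches, and that of Calr 2 and 1. Nupr1 had 2 ACGTG matches and no GCGTG match, and Trib3 had 1 GCGTG match and no ACGTG match. A match describes letters in a window and is not a measured binding site, and a window without one says only that those letters are not in it.

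**Figure D1:**
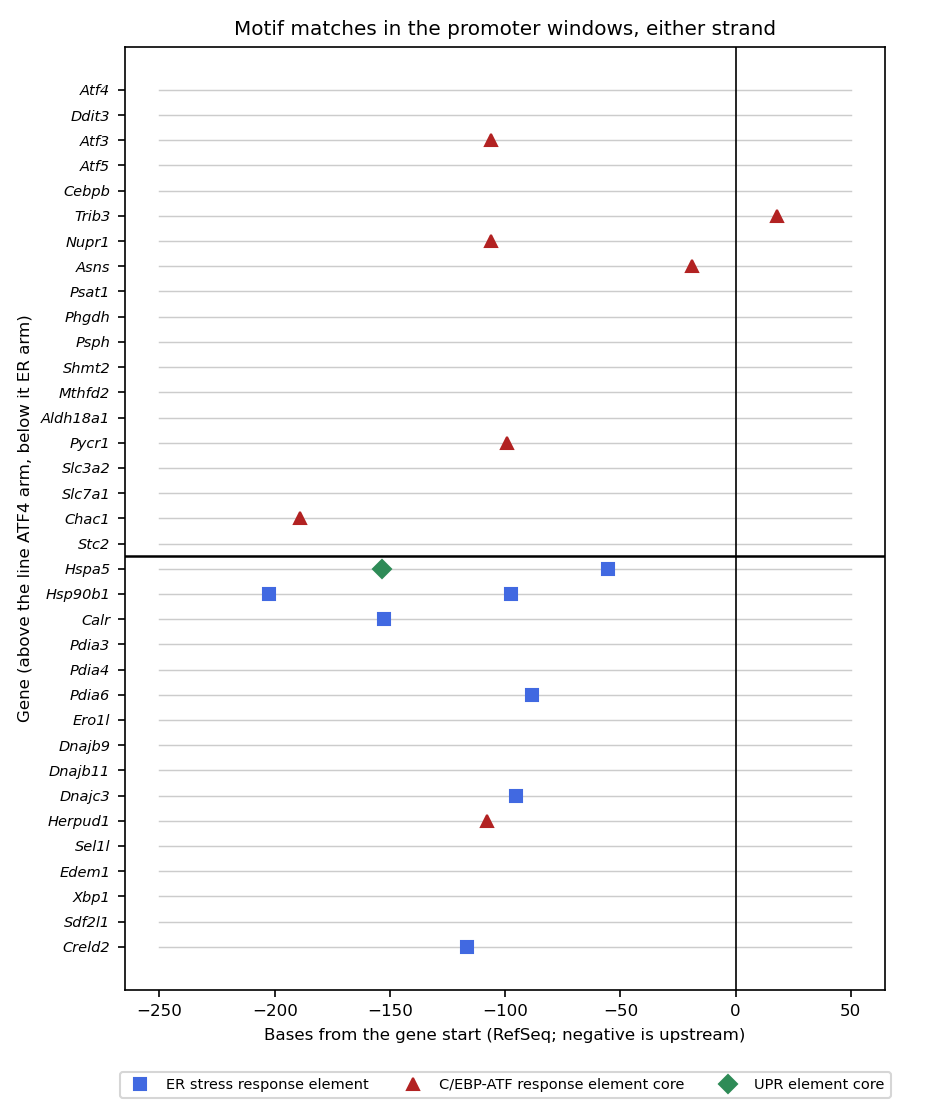
Matches to 3 motifs, on either strand, in the promoter windows of the 35 members that have one; the horizontal axis is the distance in bases from the RefSeq gene start and each horizontal line is a gene. Squares (ER stress response element) lie in 6 ER-arm genes and no ATF4-arm gene, and triangles (C/EBP-ATF core) lie in 6 ATF4-arm genes and in Herpud1.

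After 24 hours at 1% oxygen, 1 of the 38 members passed the test over both genotypes: Ero1l rose, to 2.47-fold of its normoxia level. The other 37 did not pass. Among all 12107 genes tested, 44 (0.363%) were called in this comparison, all of them higher in hypoxia. Over the 20 genes of the ATF4 arm the estimated change was positive for 15, with a median of 0.098 on the log2 scale. For the 17 genes of the ER arm other than Ero1l it was negative for 13, with a median of -0.17, or -0.163 with Ero1l included. Of all genes tested, 50.4% had a positive estimate and 49.6% a negative one, with a median of 0.002. At an unadjusted p under 0.05 there were 9 of the 38 members, 4 of the ATF4 arm and 5 of the ER arm, against 5.29% of all genes tested. These tests used limma with p-values adjusted by Benjamini and Hochberg over all genes, at a threshold of 0.05. The counts rest partly on single libraries. Without WT hypoxia replicate 1, 11 of the 20 ATF4-arm estimates were positive (median 0.016) and 11 of the 17 ER-arm estimates were negative (median -0.1). Without KO normoxia replicate 2 the ATF4 arm had 12 of 20 positive (median 0.062), without KO normoxia replicate 1 the ER-arm median was -0.094, and without WT hypoxia replicate 2 the ATF4-arm median was 0.172. In bulk RNA, fewer cells making a transcript and less of it in each cell cannot be told apart.

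**Figure D2:**
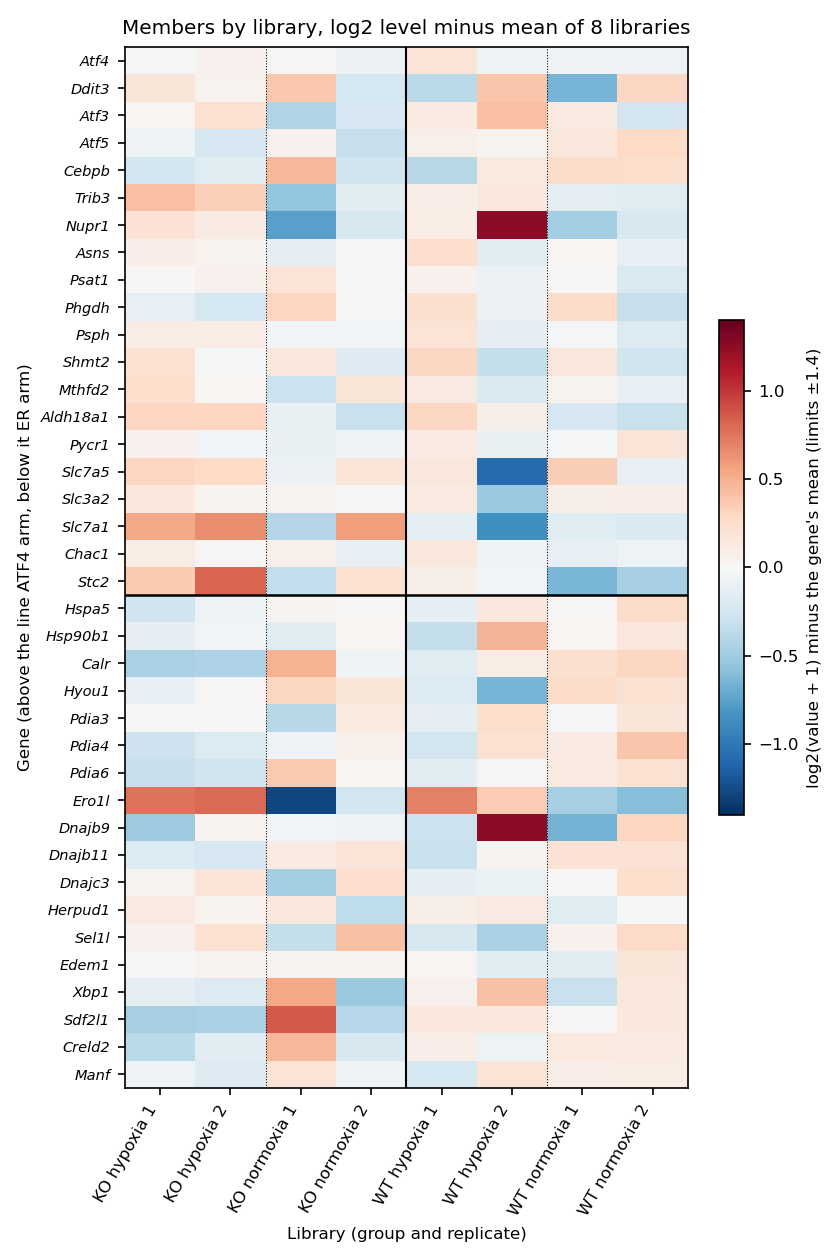
Level of each member in each library as log2(value + 1) minus the gene's mean over the 8 libraries, with red higher and blue lower; rows are genes, ATF4 arm above the line, and columns are libraries, KO left of WT and hypoxia left of normoxia. Ero1l is red in all 4 hypoxia libraries and blue in all 4 normoxia libraries, and the darkest red cells of the whole map are Nupr1 (1173) and Dnajb9 (237) in WT hypoxia replicate 2.

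ERO1-alpha, the product of Ero1l, passes electrons from protein disulfide isomerase to molecular oxygen and so drives disulfide bond formation, and in other cells its gene is known to answer both low oxygen and ER stress. The normalised read count of Ero1l was 2251 and 2299 in KO hypoxia, 547 and 1098 in KO normoxia, 2161 and 1700 in WT hypoxia, and 958 and 879 in WT normoxia. Every hypoxia library lay above every normoxia library, and the widest gap within a group was that between the KO normoxia libraries. Group means were 2275 ± 33.9 in KO hypoxia, 823 ± 390 in KO normoxia, 1931 ± 326 in WT hypoxia and 919 ± 55.9 in WT normoxia (SD, n = 2 each). Over both genotypes the change was 1.31 ± 0.22 on the log2 scale (SE, 95% interval 0.82 to 1.79, limma adjusted p = 0.0392). Alone, the KO comparison gave 1.55 ± 0.31 (limma adjusted p = 0.217) and the WT comparison 1.06 ± 0.31 (limma adjusted p = 0.705), and neither passed. Their difference, KO minus WT, was 0.49 ± 0.44, with an interval of -0.48 to 1.46 (limma adjusted p = 0.857), and -0.01 without KO normoxia replicate 1. Over all alternatives tried the change lay between 1.06 and 1.56, while the call depended on the setting. It was lost with no filter on low values (adjusted p = 0.449) and without limma's mean-variance trend (adjusted p = 0.136). It was lost on leaving out either KO hypoxia library (adjusted p = 0.167 without replicate 1 and 0.0812 without replicate 2), either WT hypoxia library (0.223 and 0.162) or either WT normoxia library (0.12 and 0.148). It was kept without either KO normoxia library (adjusted p = 0.0182 without replicate 1 and 0.00321 without replicate 2).

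**Figure D3:**
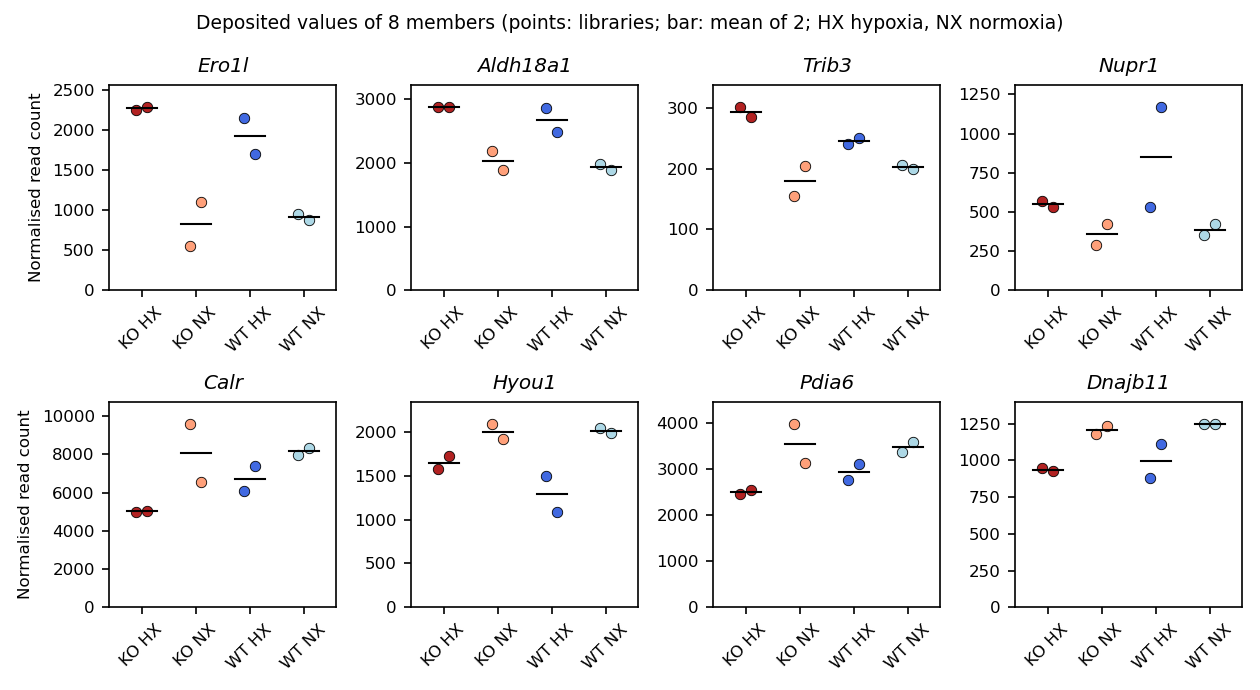
Normalised read counts of 8 members, with 1 point per library and a bar at the mean of the 2 libraries of a group; groups run from KO hypoxia (KO HX) to WT normoxia (WT NX), and each panel has its own vertical axis starting at 0. The upper 4 genes read higher in both hypoxia libraries of each genotype (Ero1l 2251 and 2299 in KO hypoxia, against 547 and 1098 in KO normoxia), and the lower 4 read lower in both (Dnajb11 950 and 926 in KO hypoxia, against 1182 and 1238 in KO normoxia).

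Of the 3 genes of the protein disulfide isomerase family among the members, none passed the test, and 2 of their 3 estimates over both genotypes were negative. Pdia6, which also binds the sensor IRE1, had 2466 and 2543 normalised counts in KO hypoxia, 3993 and 3133 in KO normoxia, 2773 and 3122 in WT hypoxia, and 3374 and 3587 in WT normoxia. It was lower in both hypoxia libraries of each genotype, and its change of -0.37 ± 0.16 did not pass the test (limma adjusted p = 0.922). In KO cells alone the estimate for Pdia6 was -0.50 ± 0.22, and -0.32 without KO normoxia replicate 1. Pdia4, another isomerase, had 1717 and 1840 in KO hypoxia, 2024 and 2206 in KO normoxia, 1743 and 2440 in WT hypoxia, and 2266 and 2752 in WT normoxia. Its groups overlapped in WT cells and not in KO cells. Pdia3, which acts on glycoproteins held by calreticulin and calnexin, had 2895 and 2883 in KO hypoxia, 2208 and 3175 in KO normoxia, 2630 and 3421 in WT hypoxia, and 2830 and 3237 in WT normoxia, and its groups overlapped in both genotypes.

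All 4 main chaperones had negative estimates in hypoxia, with a median of -0.32, and none passed the test. Calreticulin (Calr), the lectin chaperone that holds newly made glycoproteins, had 4984 and 5048 normalised counts in KO hypoxia, 9595 and 6573 in KO normoxia, 6095 and 7369 in WT hypoxia, and 7988 and 8354 in WT normoxia. It was lower in both hypoxia libraries of each genotype, by an estimated -0.47 ± 0.18 over both (limma adjusted p = 0.884) and -0.66 ± 0.26 in KO cells (limma adjusted p = 0.916), where the estimate was -0.39 without KO normoxia replicate 1. Hyou1, a large HSP70-like chaperone first described in oxygen-starved cells, had 1571 and 1727 in KO hypoxia, 2091 and 1913 in KO normoxia, 1494 and 1085 in WT hypoxia, and 2043 and 1981 in WT normoxia. All 4 hypoxia libraries lay below all 4 normoxia libraries, with a change of -0.47 ± 0.16 over both genotypes (limma adjusted p = 0.804). In WT cells it was -0.66 ± 0.23 (limma adjusted p = 0.767), and -0.43 without WT hypoxia replicate 2. Hspa5 encodes BiP, the HSP70 of the ER whose mRNA is the usual readout of the unfolded-protein response. Its values were 7391 and 8544 in KO hypoxia, 9215 and 9092 in KO normoxia, 8139 and 9886 in WT hypoxia, and 9027 and 10769 in WT normoxia. The Hspa5 estimates were -0.20 ± 0.25 in KO cells and -0.14 ± 0.25 in WT cells (limma adjusted p = 0.923 and 0.951), with 95% intervals of -0.76 to 0.35 and of -0.69 to 0.42. Hsp90b1, the HSP90 of the ER, had 10302 and 11040 in KO hypoxia, 10058 and 11582 in KO normoxia, 9029 and 15766 in WT hypoxia, and 11529 and 12633 in WT normoxia, with the widest spread inside the WT hypoxia group.

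The co-chaperones of BiP gave 2 negative estimates and 1 positive one over both genotypes, and none passed. Dnajb11, which hands unfolded protein to BiP, had 950 and 926 normalised counts in KO hypoxia, 1182 and 1238 in KO normoxia, 879 and 1115 in WT hypoxia, and 1250 and 1250 in WT normoxia. It was lower in all 4 hypoxia libraries than in all 4 normoxia libraries, with a change of -0.35 ± 0.15 that did not pass (limma adjusted p = 0.922). Dnajc3, which also restrains PERK, had 3269 and 3576 in KO hypoxia, 2280 and 3727 in KO normoxia, 2891 and 2962 in WT hypoxia, and 3142 and 3756 in WT normoxia. Dnajb9, a target of XBP1 in other cells, had 69 and 102 in KO hypoxia, 96 and 94 in KO normoxia, 80 and 237 in WT hypoxia, and 62 and 122 in WT normoxia. The 237 of WT hypoxia replicate 2 was the highest of the 8 libraries, and the groups overlapped in both genotypes.

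Xbp1, the transcription factor of the IRE1 branch, had 1095 and 1049 normalised counts in KO hypoxia, 1754 and 838 in KO normoxia, 1255 and 1592 in WT hypoxia, and 970 and 1330 in WT normoxia. Groups overlapped in both genotypes, and its estimates were -0.18 ± 0.33 in KO cells and 0.32 ± 0.33 in WT cells (limma adjusted p = 0.943 and 0.898). The KO estimate turned to 0.36 without KO normoxia replicate 1. Counts per gene do not separate spliced from unspliced Xbp1. Of the ER-associated degradation genes, Sel1l, an adaptor of the HRD1 ubiquitin ligase, had 1037 and 1146 in KO hypoxia, 786 and 1315 in KO normoxia, 852 and 723 in WT hypoxia, and 1036 and 1196 in WT normoxia. Its WT estimate of -0.50 ± 0.27 (limma adjusted p = 0.803) was -0.30 once each library's trend with transcript length was removed. Herpud1, a scaffold of the same complex, ranged from 801 to 1134 over the 8 libraries and Edem1, which selects misfolded glycoproteins, from 1042 to 1308.

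Sdf2l1, a BiP-associated protein that slows aggregation, had 129 and 130 normalised counts in KO hypoxia, 324 and 135 in KO normoxia, 198 and 198 in WT hypoxia, and 180 and 198 in WT normoxia. The 324 of KO normoxia replicate 1 was the highest value, and the other KO normoxia library read close to the KO hypoxia pair. Creld2, a secreted ER stress protein, had 565 and 662 in KO hypoxia, 1015 and 629 in KO normoxia, 785 and 700 in WT hypoxia, and 808 and 795 in WT normoxia. Manf, a trophic factor that binds BiP, ranged from 1367 to 1854.

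In the ATF4 arm the mRNA of Atf4 itself varied less than that of any other member, with its highest value 1.2 times its lowest. It had 3727 and 3953 normalised counts in KO hypoxia, 3827 and 3584 in KO normoxia, 4295 and 3652 in WT hypoxia, and 3668 and 3644 in WT normoxia. The Atf4 estimates were 0.05 ± 0.22 in KO cells and 0.12 ± 0.22 in WT cells (limma adjusted p = 0.976 and 0.953), with intervals of -0.43 to 0.54 and of -0.37 to 0.60. The Atf4 groups overlapped in both genotypes, and the WT estimate was -0.02 with the length trend removed. ATF4 protein was not measured. Ddit3, which encodes the pro-apoptotic factor CHOP, had 192 and 177 in KO hypoxia, 222 and 144 in KO normoxia, 132 and 225 in WT hypoxia, and 109 and 209 in WT normoxia. Its estimates of 0.04 ± 0.37 in KO cells and 0.19 ± 0.37 in WT cells (limma adjusted p = 0.988 and 0.955) came from overlapping groups and changed sign on leaving out single libraries, to -0.27 in KO cells without KO normoxia replicate 2 and to -0.28 in WT cells without WT normoxia replicate 1.

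Trib3 and Nupr1, both stress-induced regulators downstream of ATF4 in other cells, read higher in all 4 hypoxia libraries than in all 4 normoxia libraries. Trib3, a pseudokinase that binds ATF4 and CHOP, had 302 and 285 normalised counts in KO hypoxia, 154 and 204 in KO normoxia, 240 and 251 in WT hypoxia, and 206 and 200 in WT normoxia. Its change of 0.50 ± 0.16 over both genotypes did not pass (limma adjusted p = 0.777), nor did the 0.72 ± 0.23 of KO cells (limma adjusted p = 0.916). Nupr1, a small chromatin-associated stress protein, had 568 and 534 in KO hypoxia, 291 and 422 in KO normoxia, 530 and 1173 in WT hypoxia, and 350 and 421 in WT normoxia. The 1173 of WT hypoxia replicate 2 was the highest of the 8 values, and the change of 0.84 ± 0.25 over both genotypes (limma adjusted p = 0.592) was 0.56 without that library. In WT cells the Nupr1 estimate was 1.04 ± 0.35 (limma adjusted p = 0.767), and 0.46 without it. Of the other factors, Atf3 had 78 and 89 in KO hypoxia, 57 and 65 in KO normoxia, 84 and 103 in WT hypoxia, and 84 and 64 in WT normoxia. Atf5 ranged from 713 to 1084 and Cebpb, a partner of ATF4 on the C/EBP-ATF element, from 106 to 191.

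Among the enzymes that make serine, glycine, asparagine and proline, 7 of 8 estimates over both genotypes were positive, with a median of 0.087, and none passed the test. Aldh18a1, which begins proline synthesis from glutamate, had 2889 and 2881 normalised counts in KO hypoxia, 2182 and 1891 in KO normoxia, 2858 and 2491 in WT hypoxia, and 1990 and 1889 in WT normoxia. All 4 hypoxia libraries lay above all 4 normoxia libraries. Its change was 0.48 ± 0.15 over both genotypes (limma adjusted p = 0.695), with 0.51 ± 0.21 in KO cells and 0.46 ± 0.21 in WT cells (limma adjusted p = 0.916 and 0.79). Pycr1, which ends the same pathway in mitochondria, ranged only from 173 to 211. Asns, asparagine synthetase and a standard ATF4 target, had 5931 and 5764 in KO hypoxia, 5092 and 5526 in KO normoxia, 6565 and 5026 in WT hypoxia, and 5699 and 5133 in WT normoxia. Groups of Asns overlapped in WT cells and not in KO cells. Of the serine pathway, Psat1 ranged from 6872 to 9149, Phgdh from 413 to 634 and Psph from 1264 to 1646. Shmt2, which turns serine into glycine in mitochondria, ranged from 1938 to 2994, and Mthfd2, its neighbour in the mitochondrial folate cycle, from 1626 to 2366.

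Stc2, a secreted glycoprotein hormone, was the least abundant member, and had 61 and 84 normalised counts in KO hypoxia, 37 and 55 in KO normoxia, 50 and 46 in WT hypoxia, and 30 and 34 in WT normoxia. It was higher in both hypoxia libraries of each genotype, with a change of 0.61 ± 0.24 that did not pass (limma adjusted p = 0.867). Chac1, which degrades glutathione, ranged from 198 to 239.

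The amino acid transporters had estimates of opposite sign in the 2 genotypes, 3 of 3 positive in KO cells and 3 of 3 negative in WT cells, and none passed the test. Slc7a1, which imports cationic amino acids, had 1329 and 1445 normalised counts in KO hypoxia, 690 and 1378 in KO normoxia, 842 and 505 in WT hypoxia, and 817 and 800 in WT normoxia. Slc7a5, the light chain of the leucine transporter, had 2326 and 2283 in KO hypoxia, 1788 and 2142 in KO normoxia, 2112 and 891 in WT hypoxia, and 2401 and 1742 in WT normoxia. Slc3a2, its heavy chain, had 1357 and 1260 in KO hypoxia, 1266 and 1204 in KO normoxia, 1336 and 856 in WT hypoxia, and 1293 and 1308 in WT normoxia. WT hypoxia replicate 2 held the lowest value of all 3 transporters. The hypoxia response of KO cells minus that of WT cells was 0.82 ± 0.48 for Slc7a1 and 0.81 ± 0.51 for Slc7a5 (limma adjusted p = 0.857 for both). Without WT hypoxia replicate 2 these were 0.45 and 0.19, and without it and KO normoxia replicate 1 they were -0.05 and 0.06.

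In both genotypes at once, 5 of the 38 members (13.2%) were higher in both hypoxia libraries than in both normoxia libraries, namely Ero1l, Trib3, Nupr1, Aldh18a1 and Stc2, against 3.6% of all genes tested. In the other direction there were 4 (10.5%), Calr, Hyou1, Pdia6 and Dnajb11, against 3.42%. No member went opposite ways without overlap, against 4.15% of all genes. Pooled, 4 members were higher (10.5%, against 2.06% of all genes) and 3 lower (7.9%, against 1.65%) in all 4 hypoxia libraries than in all 4 normoxia libraries. These pooled members are all among those just named. The members were chosen with earlier results of these data known, so no conclusion is drawn from shares above those of all genes. Within KO cells 10 members were higher (26.3%) and 9 lower (23.7%) without overlap, against 15.9% and 16.3% of all genes. Within WT cells 7 were higher (18.4%) and 9 lower (23.7%), close to the 18.9% and 19.9% of all genes. No member passed the test in KO cells alone or in WT cells alone, where limma called 0.0578% and 0.107% of all genes. At an unadjusted p under 0.05 there were 4 members in KO cells, against 3.2% of all genes, and 3 in WT cells, against 6.33%. With each library left out in turn, KO estimates ranged from 1.05 to 2.054 for Ero1l, 0.522 to 0.925 for Trib3 and -0.936 to -0.39 for Calr. The largest changes came without KO normoxia replicate 2. That leaves replicate 1, which held the highest value of 10 members, as the only KO normoxia library.

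**Figure D4:**
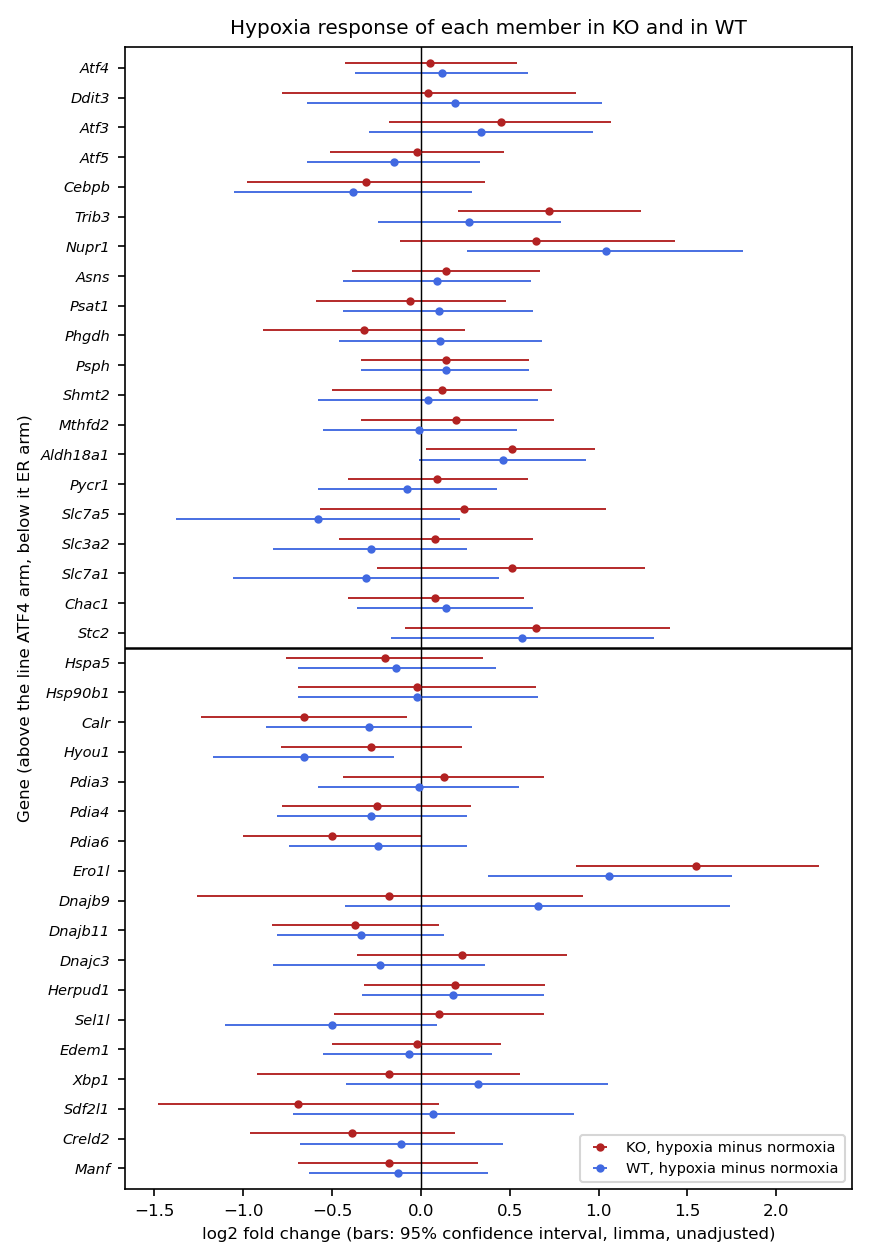
Estimated hypoxia response of each member on the log2 scale, hypoxia minus normoxia, in KO (red, upper) and WT (blue, lower) cells, with 95% confidence intervals from limma not adjusted for the number of genes. Ero1l lies farthest to the right in both genotypes (1.55 in KO and 1.06 in WT), and the KO and WT intervals of each gene overlap.

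Between genotypes, no member passed the test at either oxygen level or over both. Limma called 0% of all genes in hypoxia, 0% in normoxia and 0.0248% over both (0.0165% higher and 0.00826% lower in KO). At an unadjusted p under 0.05 there was 1 member in hypoxia, against 7.52% of all genes, there were 0 in normoxia, against 3%, and 2 over both, against 6.07%. In hypoxia 9 members were higher and 7 lower in both KO libraries than in both WT libraries, against 26.2% and 24.5% of all genes. In normoxia 1 was higher (Stc2) and 5 were lower (Atf5, Pycr1, Slc3a2, Pdia4 and Dnajb11), against 10% and 11%. Over both oxygen levels no member separated all 4 KO libraries from all 4 WT libraries, against 1.95% of all genes higher and 1.7% lower.

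The largest estimate of a member between genotypes was that of Slc7a1. In hypoxia it was 1.09 ± 0.34 (KO 1329 and 1445, WT 842 and 505, limma adjusted p = 0.641), and 0.72 without WT hypoxia replicate 2. Over both oxygen levels it was 0.68 ± 0.24 (limma adjusted p = 0.699), and 0.43 without KO normoxia replicate 2. The hypoxia estimates that followed by p were 0.75 ± 0.36 for Slc7a5, which was 0.13 without WT hypoxia replicate 2, and 0.47 ± 0.27 for Sel1l and -0.61 ± 0.35 for Sdf2l1, which were 0.28 and -0.36 with the length trend removed. Stc2 was 0.57 ± 0.33 in hypoxia, 0.49 ± 0.33 in normoxia and 0.53 ± 0.24 over both (limma adjusted p = 0.655, 1 and 0.819), and read higher in both KO libraries than in both WT libraries at each oxygen level. Atf5, a relative of ATF4, had 851 and 762 in KO hypoxia against 942 and 929 in WT hypoxia, and 936 and 713 in KO normoxia against 1000 and 1084 in WT normoxia. It was lower in both KO libraries at each oxygen level, with estimates of -0.35 ± 0.22 in normoxia and -0.28 ± 0.16 over both (limma adjusted p = 1 and 0.872). The normoxia estimate was -0.15 without KO normoxia replicate 2. Other normoxia estimates named by their p were -0.24 ± 0.24 for Pdia4, -0.26 ± 0.28 for Atf3 and -0.24 ± 0.27 for Dnajc3, the last of which turned to 0.12 without KO normoxia replicate 1 (limma adjusted p = 1 for each). Over both oxygen levels the next members by p were Pdia4 at -0.23 ± 0.17 and Slc7a5 at 0.34 ± 0.25 (limma adjusted p = 0.922 for both), which were -0.11 and 0.03 without WT hypoxia replicate 2. Ero1l gave 0.25 ± 0.31 in hypoxia, -0.24 ± 0.31 in normoxia and 0.00 ± 0.22 over both. The hypoxia estimate of Ero1l was 0.42 without WT hypoxia replicate 1 and 0.07 without WT hypoxia replicate 2.

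The difference of the hypoxia responses was not called for any member or for any gene tested (0% of 12107). At an unadjusted p under 0.05 there were 0 members, against 380 genes or 3.14% of all. Beside the transporters and Ero1l, the members with the smallest p were Sel1l at 0.60 ± 0.38, Sdf2l1 at -0.76 ± 0.50 and Trib3 at 0.45 ± 0.33 (limma adjusted p = 0.857 for each). Without WT hypoxia replicate 2 and KO normoxia replicate 1 they were 0.12, -0.13 and 0.28. The median over the 38 members was 0.036, beside 0.014 over all genes.

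Other genes of the same pathways were also looked up. Of 114 listed, 111 were in the table and 109 passed the filter, and none was called in any of the 7 comparisons (4 at an unadjusted p under 0.05 for hypoxia over both genotypes). In that comparison 48 estimates were positive and 61 negative, with a median of -0.041. Among all genes tested, 50.4% were positive and 49.6% negative. The 24 other ATF4 targets had 17 positive estimates and a median of 0.156. Their highest estimate was that of Vldlr, a lipoprotein receptor, at 1.31 ± 0.27 (limma adjusted p = 0.136), and the smallest p was that of Ddit4, an inhibitor of mTORC1 that HIF also induces. Ddit4 had 413 and 376 normalised counts in KO hypoxia, 338 and 203 in KO normoxia, 604 and 550 in WT hypoxia, and 260 and 204 in WT normoxia. Every hypoxia library was above every normoxia library, by 0.95 ± 0.19 (limma adjusted p = 0.122). The 13 aminoacyl-tRNA synthetases, also raised by ATF4 in amino acid starvation, had 10 negative estimates and a median of -0.043, and Wars had the smallest p (-0.19 ± 0.17, limma adjusted p = 0.922). The 17 sensors, eIF2 kinases, translation factors and phosphatase subunits had 13 negative estimates and a median of -0.095, with Eif2b4 at -0.46 ± 0.22 (limma adjusted p = 0.922). Of 15 other ER-associated degradation genes 8 estimates were positive (median 0.012, Erlec1 0.43 ± 0.19, limma adjusted p = 0.922). Of 40 further genes of ER folding, translocation and secretion 24 were negative (median -0.054, Tmed2 -0.44 ± 0.18, limma adjusted p = 0.91).

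Levels of different members can be compared only per length of transcript. Per kilobase of the longest protein-coding transcript, Hsp90b1 was highest at 4068 ± 725 normalised counts (mean and SD of the 8 libraries), followed by Calr at 3205 ± 746, Psat1 at 3062 ± 253, Asns at 2774 ± 258, Hspa5 at 2453 ± 282 and Atf4 at 2199 ± 136. Neighbours in this order differed by less than the sum of their SDs. Ero1l was at 337 ± 158. The lowest were Dnajb9 at 43.8 ± 22.6, Atf3 at 39.3 ± 7.68 and Stc2 at 12.6 ± 4.44, so the values of Stc2 rest on the fewest reads.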

How the data were processed

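Total RNA of 8 libraries was extracted with a miRNeasy kit and made into libraries with the NEB small RNA set for SOLiD, per the labels' protocols. Each deposited value is a score, by the table's name a read count that the authors normalised, and is here a whole number of at least 1. How reads were aligned, counted and normalised, with which build and strand, is not given in the sources used here, and reads of overlapping genes cannot be told apart. Depth was estimated from the spacing of low values (1 read is worth 0.673 to 1.384). Rounding hides the reads, so no count model was run.

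Values were taken as log2(value + 1), which understates changes of low genes. Genes reaching 10 in at least 2 libraries were tested (12107 kept, 4984 not). Limma 3.58.1 in R 4.3.3, with a mean-variance trend, was fitted with 4 group means to the 8 libraries. Its 7 contrasts were tested two-sided, with Benjamini-Hochberg adjustment across tested genes and a threshold of 0.05. Exact tests cannot go below p = 0.333 for 2 libraries against 2, or p = 0.0286 for 4 against 4. Calls rest on the spread pooled over groups and moderated by limma with that of all tested genes (10.2 degrees of freedom in total). The test was checked on simulated data.

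Members and lists were chosen with earlier results of these data known. Fold changes are given for members past the threshold, the 5 with the smallest p in each comparison, and Atf4, Ddit3, Hspa5 and Xbp1 in hypoxia; Stc2, Calr, Pdia6 and Dnajb11 over both genotypes, and Ero1l in every comparison, were added after their values were seen. Of genes outside the list, the one with the smallest p in each pathway list is given. Transcript lengths came from GENCODE M21, and current gene symbols from RefSeq. Replicate numbers were not shown to pair libraries. The 18 alternatives changed the pseudocount, filter, scaling, trend, weights or block, or left out 1 library, or left out WT hypoxia replicate 2 and KO normoxia replicate 1 together. Cell type marker lists other than those in the text are not reported here. Vldlr, the highest estimate of its list, was added after its value was seen.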

Additional observations from a re-analysis of the deposited data

How the results depend on the processing

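Values here are log2 fold changes unless called counts. Single-member estimates here are only the 51 pairs of member and comparison chosen for printing, largely by smallest p, and not all member estimates. Of the single-member estimates under the 18 alternatives, 880 of 914 kept their direction and their side of the threshold, 23 changed sign, 8 lost a call and 3 gained one. With no filter on low values, or with no mean-variance trend, 0 members were called for hypoxia over both genotypes. Leaving out each library in turn leaves 1 library in a group, so sizes of change are given for those fits below. Outside that comparison and KO cells alone, no member was called under any setting.

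Leaving out each library in turn, the members' median ranged from -0.042 to 0.044 for hypoxia over both genotypes, -0.02 to 0.08 in KO cells, -0.092 to 0.043 in WT cells, -0.072 to 0.048 for KO against WT in normoxia and -0.029 to 0.062 for the difference of responses. With the length trend removed it was 0.151 for that difference and 0.068 for KO against WT in hypoxia. Without WT hypoxia replicate 2 and KO normoxia replicate 1 it was 0.043 in WT cells.

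Among the 51 single-member estimates defined above, those that changed sign when a library was left out were these. Estimates of other members and comparisons are not covered. In WT cells Atf4 ranged from -0.002 to 0.232, Ddit3 from -0.277 to 0.656 and Hspa5 from -0.277 to 0.004. In KO cells Ddit3 ranged from -0.267 to 0.354 and Xbp1 from -0.71 to 0.355. For KO against WT, Dnajc3 in normoxia ranged from -0.591 to 0.118, and Ero1l from -0.745 to 0.259 in normoxia and from -0.249 to 0.253 over both oxygen levels. The Ero1l difference of responses ranged from -0.012 to 0.992. With the length trend removed, WT Atf4 was -0.023, WT Ddit3 -0.122 and Ero1l in KO against WT over both oxygen levels -0.03. Without WT hypoxia replicate 2 and KO normoxia replicate 1, the difference was -0.05 for Slc7a1 and -0.185 for Ero1l, WT Ddit3 was -0.193, KO Xbp1 0.355, and in normoxia Dnajc3 was 0.118 and Ero1l 0.259. The causes were not tested.

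Deviations of same-numbered libraries from their group means correlated at 0.23 between KO hypoxia and KO normoxia, at 0.57 between WT hypoxia and WT normoxia, and at -0.11 to 0.11 between genotypes. The labels do not say what a number marks, so pairing was not shown. The replicate block used here was shared by all groups, and pairing within each genotype was not fitted. With a replicate block, 1 member, Ero1l, was called over both genotypes (limma adjusted p = 0.0285) and none elsewhere; all genes called were 11 instead of 7 in KO cells, 19 instead of 13 in WT cells, 56 instead of 44 over both genotypes and 4 instead of 3 for KO against WT over both oxygen levels. With 2 libraries a group and estimated depths of 6.25 M to 11.75 M reads, low members such as Stc2 and Dnajb9 carry the most counting error.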
